A study of Mus musculus with 6 samples.

Results

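The 42 genes described here encode carriers and enzymes of glycolysis, lactate formation, the pentose phosphate pathway, pyruvate oxidation and the citric acid cycle, and they were chosen as a list, by gene symbol, from the 15903 genes tested. All 42 were found, under 43 gene identifiers, since *Aldoa* carries a second one that is described apart. Their RNA was measured in bone-marrow-derived macrophages (BMDMs), that is, macrophages grown in culture from marrow under M-CSF, a growth factor of this lineage. Cells of 3 mice were left unstimulated (control, n = 3), and cells of the same 3 mice received 62 mM excess NaCl for 24 h (NaCl, n = 3). All mice carried the Cx3cr1GFP allele, with GFP inserted in the *Cx3cr1* locus, on the C57BL/6J background, and their age is not given in the sources used here. Only adherent cells were sequenced, each library is a bulk culture, and no library of mice without the allele or of cells with another osmolyte such as mannitol was analysed here. In bulk RNA, fewer cells of a type and less RNA per cell cannot be told apart.

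Glycolysis splits glucose into pyruvate in the cytosol. Hexokinases trap the sugar as glucose 6-phosphate, phosphofructokinase commits it, and the lower steps yield ATP, NADH and pyruvate, which lactate dehydrogenase can turn into lactate for export. The pentose phosphate pathway branches off at glucose 6-phosphate and yields NADPH and ribose 5-phosphate, whereas pyruvate dehydrogenase feeds carbon into the citric acid cycle in mitochondria. In macrophages, inflammatory activation is known for a rise of glycolysis and lactate output, and the transcription factor HIF-1 is a known activator of many glycolytic genes.

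The question of the series was which genes NaCl alters in BMDMs. Sequencing depth ranged from 4088065 counts (NaCl replicate 3) to 20123570 counts (control replicate 3) per library, and the lowest count of any of the 42 genes in a library was 32. The 42 genes took 1.29 to 1.65% of the counts of a control library and 1.39 to 1.99% of those of an NaCl library. Levels are given as CPM (counts scaled to a common library size with edgeR's TMM method), changes as the log2 fold change of NaCl against control with its standard error (SE), and calls as a Benjamini-Hochberg adjusted p under 0.05 over all genes tested, from edgeR's quasi-likelihood test. The mouse numbers pair the libraries, so each change is also given from a fit in which the mouse enters as a replicate block. This term was added after seeing the data.

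Without the block, 0 of the 42 genes passed the threshold in edgeR, beside 0.654% of all genes tested (0.478% higher and 0.176% lower). At an unadjusted p under 0.05 there were 6 of the 42 genes, beside 12.6% of all genes, and DESeq2 without the block called 0 of the 42, beside 2.52% of all genes. With the block, 7 of the 42 genes passed (16.7%), beside 8.9% of all genes. The 42 had a smaller median SE in this fit than all genes (0.12 against 0.17), so changes were easier to call among them. *Pkm*, *Ogdh* and *Idh1* were higher in NaCl (3 genes, beside 4.6% of all genes), and *Pfkfb3*, *Pgk1*, *Slc16a3* and *Pdk1* were lower (4 genes, beside 4.3% of all genes). The median log2 fold change over the 42 genes was -0.04 with and without the block, beside -0.02 and -0.01 over all genes, so the list as a whole lay near the middle of the table. In 3 of 3 mice, 9 of the 42 were above the control level (20.1% of all genes were) and 14 below it (23.4% of all genes were).

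**Figure D1:**
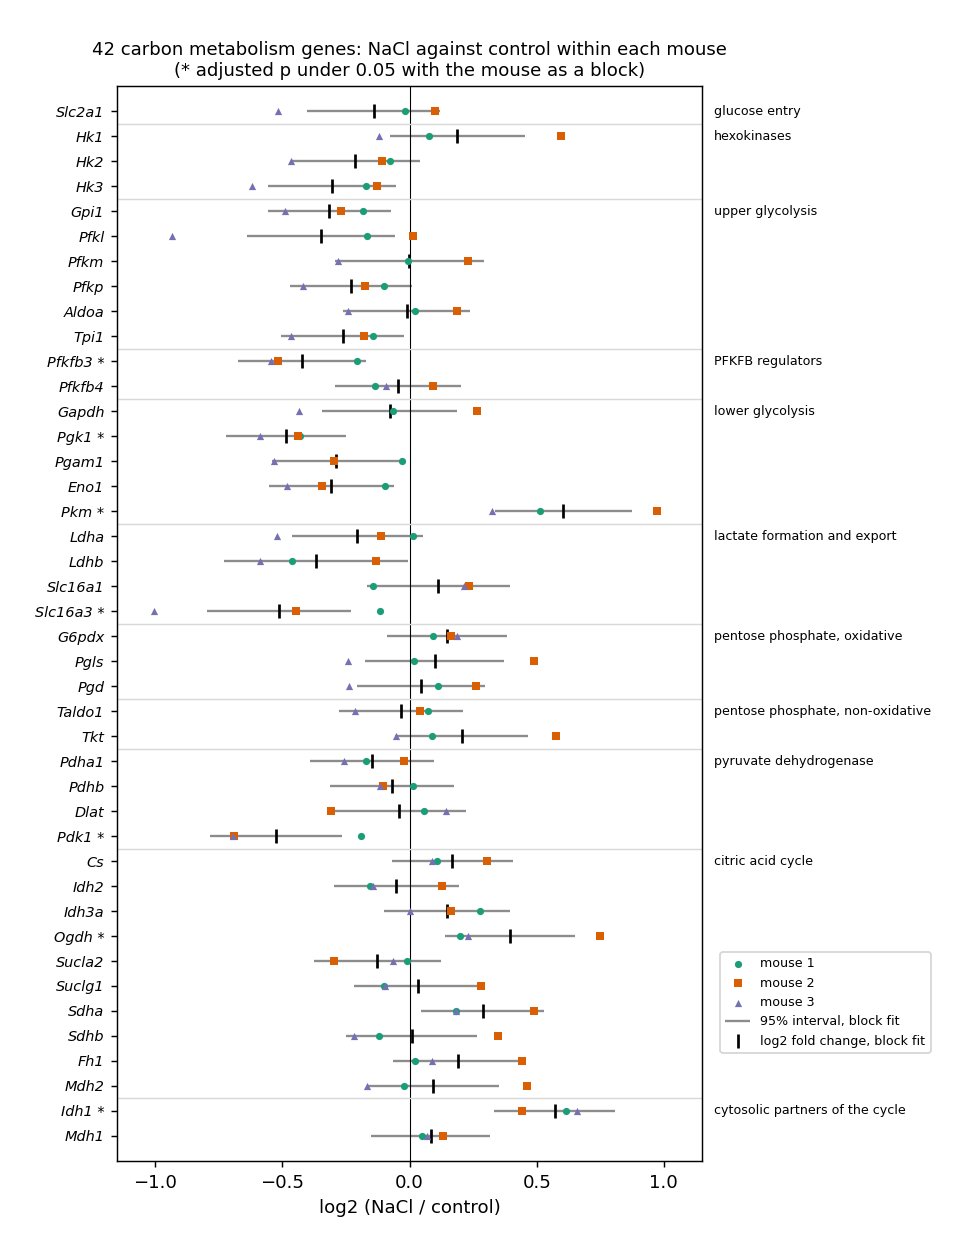
Log2 ratio of NaCl to control for each of the 42 genes, in pathway order from glucose entry (top) to the cytosolic partners of the citric acid cycle (bottom). Coloured points are the 3 mice, black ticks the log2 fold change with the mouse as a block and grey lines its 95% interval. The 4 called lower genes have 3 of 3 mice below 0, the 3 called higher genes 3 of 3 mice above 0, and *Pkm* stands apart from the other steps of lower glycolysis.

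The 4 genes that fell with the block were *Pdk1*, *Pfkfb3*, *Pgk1* and *Slc16a3*. *Pdk1* (ENSMUSG00000006494.12, chromosome 2) encodes pyruvate dehydrogenase kinase 1, which switches pyruvate dehydrogenase off and so holds pyruvate back from the citric acid cycle. Its CPM was 111, 145 and 129 in the control libraries of mice 1, 2 and 3, and 97.3, 89.6 and 79.5 in their NaCl libraries. Every NaCl library lay below every control library. The log2 fold change was -0.53 (SE 0.14, edgeR adjusted p = 0.16) without the block and -0.52 (SE 0.13, edgeR adjusted p = 0.0072) with it, and without mouse 3 the blocked adjusted p was 0.064.

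*Pfkfb3* (ENSMUSG00000026773.20, chromosome 2) encodes the bifunctional enzyme that makes fructose 2,6-bisphosphate, a potent activator of phosphofructokinase. Its CPM was 65.0, 87.7 and 78.4 in the control libraries of mice 1, 2 and 3 and 56.3, 61.2 and 53.7 in their NaCl libraries. The groups again did not overlap, and mouse 1 showed the smallest difference. The log2 fold change was -0.43 (SE 0.14, edgeR adjusted p = 0.26) without the block and -0.42 (SE 0.12, edgeR adjusted p = 0.027) with it. This call was lost without mouse 1 (adjusted p = 0.087), without mouse 3 (0.15), in DESeq2 with the block (0.079) and after thinning to equal depth (0.10). Among all genes tested, NaCl libraries lay wholly below the control libraries in 10.1%, and of the 42 genes *Pdk1* and *Pfkfb3* did so.

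*Pgk1* (ENSMUSG00000062070.13, chromosome X) encodes phosphoglycerate kinase, the first ATP-yielding step. Its CPM was 246, 372 and 319 in control replicates 1 to 3, and 182, 275 and 212 in the matching NaCl libraries. The 3 mice fell alike, by 0.43, 0.44 and 0.59 on the log2 scale for mice 1, 2 and 3, while the groups overlapped, because mouse 1 had the lowest level of the mice in both. Its log2 fold change was -0.48 (SE 0.19, edgeR adjusted p = 0.34) without the block and -0.49 (SE 0.12, edgeR adjusted p = 0.0068) with it. With mouse 1 or mouse 3 left out, the blocked adjusted p was 0.12 or 0.082. Of the 75-base windows of *Pgk1* exons, 52.8% also occur in another gene model, chiefly the processed copies *Pgk1-rs7* and *Gm5537*, each of which had a total of 1 count over the 6 libraries. How reads from shared windows were assigned was not examined, so these totals do not show how many *Pgk1* reads went uncounted.

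*Slc16a3* (ENSMUSG00000025161.17, chromosome 11) encodes MCT4, the carrier by which glycolytic cells export lactate. Its CPM was 86.6, 145 and 131 in the control libraries of mice 1, 2 and 3, and 79.9, 106 and 65.2 in the NaCl libraries. The difference was small in mouse 1 and wide in mouse 3, and the groups overlapped. The log2 fold change was -0.52 (SE 0.22, edgeR adjusted p = 0.38) without the block and -0.51 (SE 0.14, edgeR adjusted p = 0.016) with it. Without mouse 3 it was -0.28 (adjusted p = 0.32), so the size of this change rests on that mouse.

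*Pdk1*, *Pgk1*, *Slc16a3* and *Pfkfb3* are known as genes that HIF-1 can activate, through the core letters ACGTG or GCGTG near their start sites. The same is known of *Pkm*, which rose, and of *Slc2a1*, *Hk2*, *Aldoa* and *Ldha*, which did not pass the test. To show these letters, the 250 bases before the first listed start of each gene are printed 5′ to 3′ on the strand of the gene, from RefSeq (GRCm38.p6), with each match of ACGTG or GCGTG on either strand in capitals. The regions are chr2:71872974-71873223 (plus strand) for *Pdk1*, chrX:106186850-106187099 (plus strand) for *Pgk1*, chr11:120948817-120949066 (plus strand) for *Slc16a3* and chr2:11553930-11554179 (minus strand) for *Pfkfb3*. For contrast, the regions of *Pkm* at chr9:59656326-59656575 (plus strand) and *Idh1* at chr1:65186480-65186729 (minus strand), genes that were higher in NaCl, hold no match.
Pdk1: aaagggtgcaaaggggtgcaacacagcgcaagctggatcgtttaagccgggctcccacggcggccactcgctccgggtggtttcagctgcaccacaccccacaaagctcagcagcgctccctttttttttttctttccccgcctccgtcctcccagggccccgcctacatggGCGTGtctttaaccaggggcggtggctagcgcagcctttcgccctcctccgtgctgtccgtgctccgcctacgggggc
Pgk1: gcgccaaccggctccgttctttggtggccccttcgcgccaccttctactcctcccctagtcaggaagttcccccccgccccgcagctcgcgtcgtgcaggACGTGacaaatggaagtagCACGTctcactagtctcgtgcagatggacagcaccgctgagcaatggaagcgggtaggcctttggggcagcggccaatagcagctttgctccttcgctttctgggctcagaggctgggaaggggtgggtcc
Slc16a3: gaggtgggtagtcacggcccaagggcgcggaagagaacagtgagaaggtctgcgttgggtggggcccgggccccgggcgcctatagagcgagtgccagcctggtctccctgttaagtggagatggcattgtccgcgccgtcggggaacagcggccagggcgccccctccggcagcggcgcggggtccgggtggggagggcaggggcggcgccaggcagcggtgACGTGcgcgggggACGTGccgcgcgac
Pfkfb3: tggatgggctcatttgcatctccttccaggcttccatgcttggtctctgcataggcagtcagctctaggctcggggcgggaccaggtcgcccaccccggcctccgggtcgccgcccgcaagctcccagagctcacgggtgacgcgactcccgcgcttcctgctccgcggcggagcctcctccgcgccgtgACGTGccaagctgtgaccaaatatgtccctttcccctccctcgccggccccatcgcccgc
Pkm: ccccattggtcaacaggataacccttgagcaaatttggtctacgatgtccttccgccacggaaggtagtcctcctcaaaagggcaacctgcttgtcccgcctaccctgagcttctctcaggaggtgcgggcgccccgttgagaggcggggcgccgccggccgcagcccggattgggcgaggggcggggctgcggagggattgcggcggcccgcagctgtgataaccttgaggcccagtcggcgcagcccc
Idh1: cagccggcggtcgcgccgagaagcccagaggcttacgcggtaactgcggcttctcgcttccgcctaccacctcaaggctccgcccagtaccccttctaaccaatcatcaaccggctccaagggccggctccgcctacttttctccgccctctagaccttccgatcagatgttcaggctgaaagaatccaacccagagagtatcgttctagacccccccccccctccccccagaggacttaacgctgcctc

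*Pgk1* and *Slc16a3* hold 2 matches each, and *Pdk1* and *Pfkfb3* hold 1 each. The contrast depends on which start is read, since another listed start of *Pkm* and of *Idh1* holds 1 match, and every listed start of *Ogdh* holds at least 2. Among the lower genes, another listed start of *Pdk1* holds no match and that of *Pfkfb3* holds 3. Promoter entries were found for 41 of the 42 genes, and 36 of these 41 (87.8%) held ACGTG or GCGTG at any listed start, beside 6488 of the 10844 genes tested that had an entry (59.8%). The letters were therefore common in the list whether a gene rose, fell or passed no test. The sequence CACGTG, which contains ACGTG, was present for 12.2% of the 41 genes and 9.79% of the genes tested, and TGGAAA, the core bound by the osmotic stress factor NFAT5, for 14.6% and 17.8%. A match describes letters, and binding was not measured here.

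The 3 genes that rose with the block were *Pkm*, *Idh1* and *Ogdh*. *Pkm* (ENSMUSG00000032294.18, chromosome 9) encodes pyruvate kinase, the last step, and was the most abundant of the 42 genes per length. Its CPM was 2299.8, 3405 and 3089 in the control libraries of mice 1, 2 and 3 and 3286, 6689.6 and 3870.5 in the NaCl libraries. NaCl replicate 2 stood well above the rest, and the groups overlapped, NaCl replicate 1 lying below control replicate 2. The log2 fold change was 0.66 (SE 0.26, edgeR adjusted p = 0.34) without the block and 0.60 (SE 0.13, edgeR adjusted p = 0.0030) with it. Without NaCl replicate 2 alone, the value without the block was 0.29. Without mouse 1 the blocked adjusted p was 0.060, and without mouse 2 the log2 fold change was 0.43 (adjusted p = 0.0010).

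*Pkm* alone took 0.237 to 0.332% of all counts in the control libraries and 0.341 to 0.636% in the NaCl libraries. Part of its sequence is shared, with 17.8% of its windows also found in other gene models, and 15.3% of its exon bases overlap *Gm49759* on the same strand. *Gm49759* had a mean of 138 ± 31.3 CPM in control and 171 ± 47.4 CPM in NaCl (SD, n = 3), with a log2 fold change of 0.30 that did not pass the test with the block (edgeR adjusted p = 0.12). *Gm6560*, a processed pseudogene that shares windows with *Pkm*, had levels of 4.55, 7.34 and 5.80 CPM in the control libraries of mice 1, 2 and 3 and 8.38, 9.88 and 11.3 in their NaCl libraries. Its groups did not overlap, and it rose with the block (log2 fold change 0.73, edgeR adjusted p = 0.016). The gene counts do not separate the splice forms PKM1 and PKM2.

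*Idh1* (ENSMUSG00000025950.17, chromosome 1) encodes the cytosolic isocitrate dehydrogenase, which makes 2-oxoglutarate and NADPH outside the mitochondria. Its CPM was 265, 194 and 173 in the control libraries of mice 1, 2 and 3 and 407, 263 and 273 in their NaCl libraries. Mouse 1 was highest in both groups, which overlapped, and the 3 mice rose by 0.62, 0.44 and 0.66 on the log2 scale. Its log2 fold change was 0.58 (SE 0.21, edgeR adjusted p = 0.30) without the block and 0.57 (SE 0.12, edgeR adjusted p = 0.0016) with it, and without mouse 1 the blocked adjusted p was 0.066. Without NaCl replicate 1 alone, the value without the block was 0.35. No window of *Idh1* is shared with another gene model.

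*Ogdh* (ENSMUSG00000020456.18, chromosome 11) encodes the E1 subunit of 2-oxoglutarate dehydrogenase in the citric acid cycle. Its CPM was 137, 167 and 175 in the control libraries of mice 1, 2 and 3 and 157, 280.4 and 205 in their NaCl libraries. Mouse 2 carried most of the difference, and the groups overlapped. The log2 fold change was 0.43 (SE 0.20, edgeR adjusted p = 0.42) without the block and 0.40 (SE 0.12, edgeR adjusted p = 0.046) with it. Without NaCl replicate 2 alone, the value without the block was 0.19. This call did not hold without mouse 1 (adjusted p = 0.12) or without mouse 2 (log2 fold change 0.22, adjusted p = 0.16), with total count scaling (0.058) or in DESeq2 with the block (0.075).

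**Figure D2:**
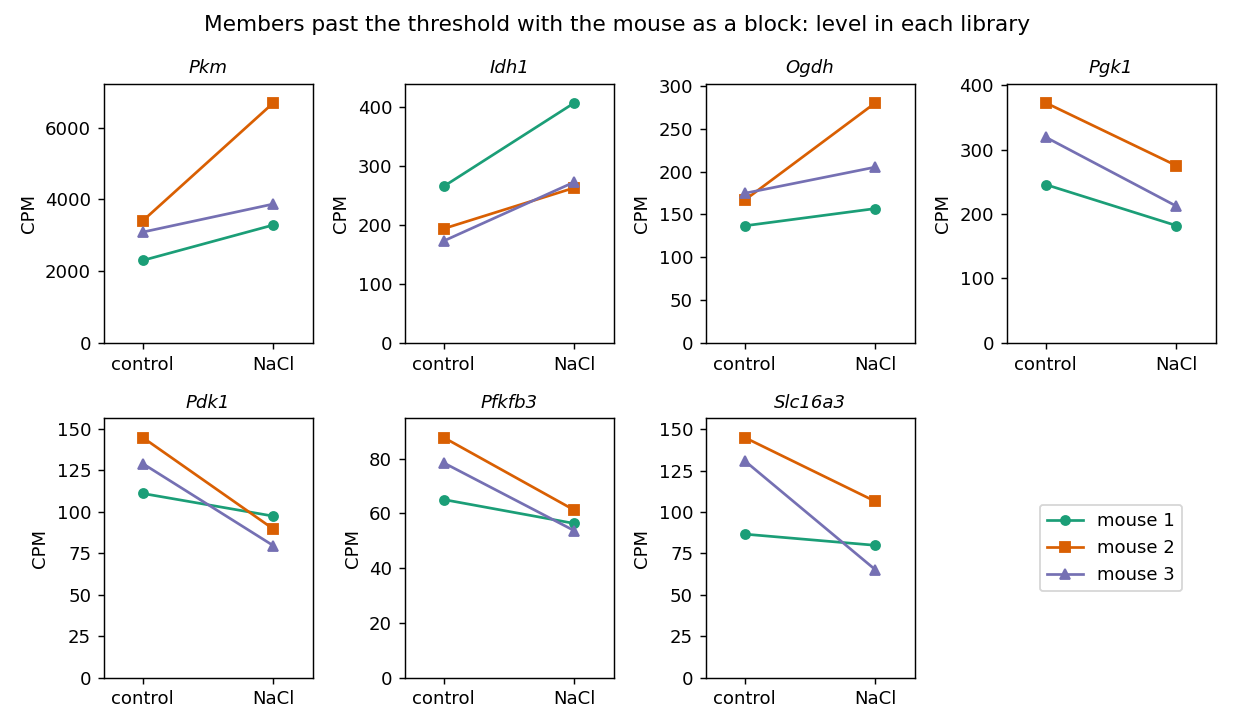
CPM of the 7 genes past the threshold with the block, control against NaCl, with a line for each of the 3 mice and axes that start at 0. The lines of *Pkm*, *Idh1* and *Ogdh* rise and those of *Pgk1*, *Pdk1*, *Pfkfb3* and *Slc16a3* fall in 3 of 3 mice, and the steepest line is that of mouse 2 for *Pkm* (3405 to 6689.6 CPM).

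The remaining steps of glycolysis did not pass the test. Their 95% intervals, which are not adjusted for the number of genes, spanned 0 for some genes and lay below it for others. For *Slc2a1*, the glucose carrier GLUT1, the blocked log2 fold change was -0.14 (95% interval -0.40 to 0.12). *Hk2*, the inducible hexokinase, had -0.21 (-0.47 to 0.04), and *Ldha*, the lactate dehydrogenase subunit that favours lactate formation, had -0.20 (-0.46 to 0.05). *Aldoa* (aldolase A) at -0.01 (-0.26 to 0.24) and *Gapdh* at -0.08 (-0.34 to 0.19) lay closest to 0 among the abundant enzymes of glycolysis. The blocked intervals of *Hk3* (-0.56 to -0.05), *Gpi1* (-0.56 to -0.07) and *Pfkl* (-0.64 to -0.06) lay wholly below 0. So did those of *Tpi1* (-0.51 to -0.02), *Pgam1* (-0.54 to -0.04), *Eno1* (-0.55 to -0.06) and *Ldhb* (-0.73 to -0.0066). In upper glycolysis (*Gpi1*, *Pfkl*, *Pfkm*, *Pfkp*, *Aldoa*, *Tpi1*) the median log2 fold change without the block was -0.25 over 6 genes, of which 5 had a negative value (as had 8083 of all 15903 genes) and 0 were called. The median log2 ratio of these 6 genes was -0.12, -0.08 and -0.44 in mice 1, 2 and 3. In lower glycolysis (*Gapdh*, *Pgk1*, *Pgam1*, *Eno1*, *Pkm*) the median log2 fold change was -0.32 over 5 genes, with *Pkm* the one positive value. Their median log2 ratio was -0.06, -0.30 and -0.48 in mice 1, 2 and 3.

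Which of these genes passed with the block depended on the mice included. With all 3 mice, the edgeR adjusted p was 0.13 for *Hk3*, 0.0998 for *Gpi1*, 0.13 for *Pfkl*, 0.18 for *Tpi1*, 0.16 for *Pgam1* and 0.11 for *Eno1*. Without mouse 2, *Hk3*, *Gpi1*, *Pfkl*, *Tpi1* and *Eno1* passed too, which gave 9 lower and 2 higher genes (beside 9.57% of all genes in both directions). Without mouse 3, in contrast, 0 genes were lower and 3 were higher (beside 8.75%), and without mouse 1, 2 were lower and 0 higher (beside 5.93%). The median log2 ratio over the 42 genes was -0.02 in mouse 1, 0.12 in mouse 2 and -0.23 in mouse 3, so mice 2 and 3 lay on opposite sides of 0. With GC content and gene length corrected for, an alternative that like the block was added with results known, 10 genes were lower and 4 higher with the block, beside 13.4% of all genes. The 10 comprised the 4 genes above, *Hk3*, *Gpi1*, *Pfkl*, *Tpi1*, *Pgam1* and *Eno1*, and *Sdha* joined the higher genes.

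Genes of lactate handling had values on both sides of 0. *Slc16a1*, which encodes the carrier MCT1, had a log2 fold change of 0.12 (SE 0.26) beside the lower *Slc16a3*, and *Ldhb* had -0.33 (SE 0.24). *Pfkfb4*, beside the lower *Pfkfb3*, had -0.05 (SE 0.15). Whether the members of a pair differ in their response was not tested.

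Of the 42 genes, the 5 of the pentose phosphate pathway did not pass the test in either fit. *G6pdx* encodes glucose 6-phosphate dehydrogenase, the NADPH-yielding entry step, and its CPM was 290.2, 293 and 290.0 in the control libraries and 309.8, 328 and 330.1 in the NaCl libraries of mice 1, 2 and 3. The NaCl libraries all lay above the control libraries, whose levels hardly varied, by a log2 fold change of 0.15 (SE 0.11, edgeR adjusted p = 0.65), with a 95% interval with the block of -0.09 to 0.38. Of its exon bases, 13.6% overlap *Ikbkg* on the opposite strand, and the counting used no strand. The other oxidative genes, *Pgls* and *Pgd*, had log2 fold changes of 0.12 (SE 0.19) and 0.05 (SE 0.17). Transaldolase (*Taldo1*) had -0.05 (SE 0.20) and transketolase (*Tkt*) 0.23 (SE 0.17).

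At the entry to mitochondria, the subunits of pyruvate dehydrogenase did not pass the test, while their kinase *Pdk1* fell with the block. The log2 fold changes were -0.14 (SE 0.13) for *Pdha1*, -0.07 (SE 0.12) for *Pdhb* and -0.03 (SE 0.16) for *Dlat*, and 0 of the 3 passed the test with or without the block. In the citric acid cycle, 8 of 10 genes had a positive log2 fold change (as had 7820 of all 15903 genes), 1 (*Ogdh*) was called with the block, and the median was 0.13. The median log2 ratio of these 10 genes was 0.0060 in mouse 1, 0.33 in mouse 2 and -0.033 in mouse 3. Only mouse 2 thus showed a clear rise over the cycle. *Sdha*, the flavoprotein subunit of succinate dehydrogenase, had a CPM of 245, 259 and 244 in the control libraries and 278, 365 and 277 in the NaCl libraries. Its groups did not overlap, with a log2 fold change of 0.30 (SE 0.14), but it did not pass with the block (edgeR adjusted p = 0.14). *G6pdx* and *Sdha* were the only 2 of the 42 genes with every NaCl library above every control library, as were 8.92% of all genes tested.

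The other genes of the cycle lay between -0.13 for *Sucla2*, a succinyl-CoA ligase subunit, and 0.21 for *Fh1*, fumarase. Citrate synthase (*Cs*) had 0.17 (SE 0.15), the malate dehydrogenase of mitochondria (*Mdh2*) 0.13 (SE 0.21) and that of the cytosol (*Mdh1*) 0.09 (SE 0.13). The mitochondrial isocitrate dehydrogenases did not pass the test beside the cytosolic *Idh1*, with 0.13 (SE 0.20) for *Idh3a* and -0.04 (SE 0.18) for *Idh2*. *Suclg1* had 0.04 (SE 0.16), and *Sdhb* at 0.02 (SE 0.14) lay nearest to 0 among the genes of the cycle.

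Much of the spread among libraries followed the mouse. In edgeR with the block, the mice differed for 15 of the 42 genes (35.7%), beside 8.89% of all genes tested. The median SE of the NaCl change with the block was 0.12 over the 42 genes and 0.17 over all genes. Differences were therefore easier to call among the 42 than among all genes. Mouse 1 had the lowest CPM of the mice in both control and NaCl for 23 of the 42 genes (54.8%), beside 20.4% of all genes. For *Slc2a1*, for example, the CPM was 109, 198 and 212 in control and 108, 212 and 148 in NaCl for mice 1, 2 and 3, and the mouse term had an edgeR adjusted p of 0.000565. The sum of squares of log2 CPM between mice exceeded that between treatments for 33 of the 42 genes (78.6%), beside 66.6% of all genes, with medians of 60.6 and 20.5% of the total. NaCl replicate 2 was the highest of the 6 libraries for 20 of the 42 genes (24.5% of all genes), and control replicate 2 for 14 (13.3% of all genes). A test of mouse 1 against the others as such was not made, and age or culture differences between the mice are not given. The control and NaCl libraries of a mouse carry adjacent sample numbers. A culture, preparation or sequencing round that they may share cannot be told apart from the mouse.

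**Figure D3:**
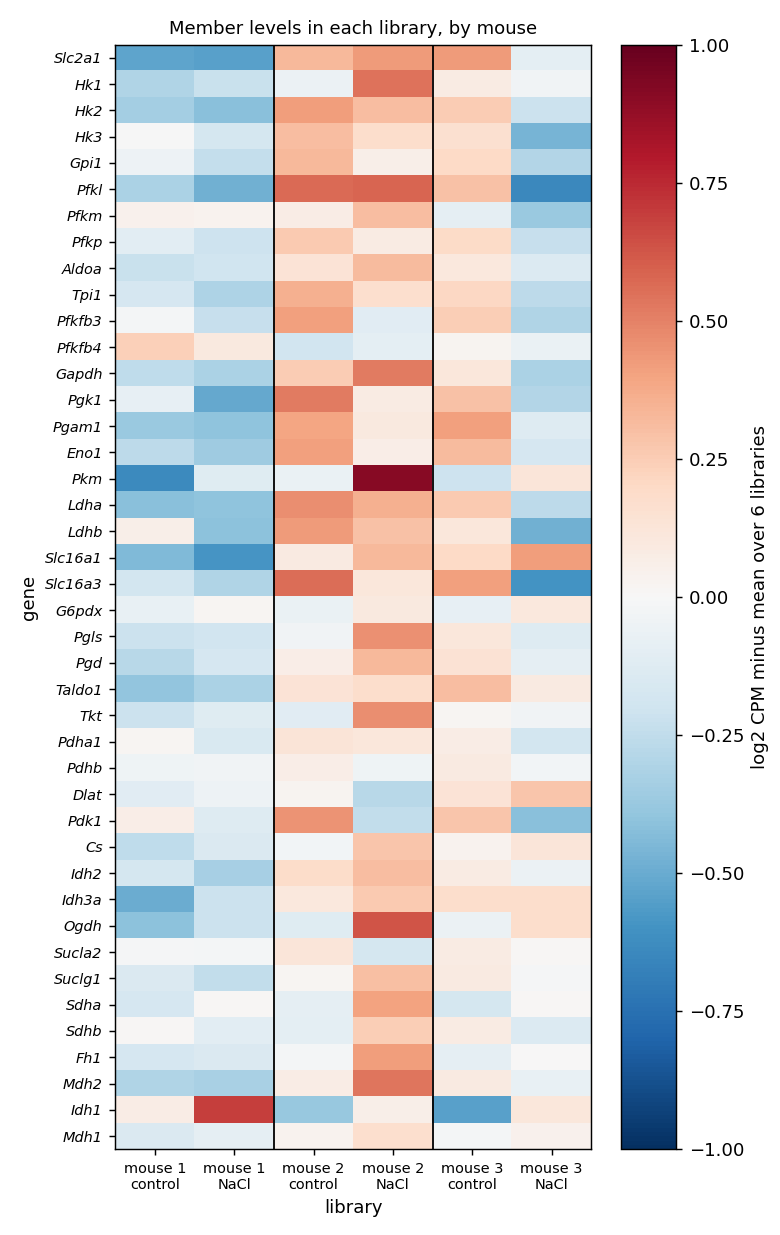
Log2 CPM of each of the 42 genes minus its mean over the 6 libraries, with control and NaCl of a mouse side by side (red above, blue below the mean, scale from -1 to 1). The columns of mouse 1 are mostly blue and those of mouse 2 mostly red in both treatments, and mouse 1 was lowest in both for 23 of the 42 genes.

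Isoenzyme levels were compared per length, as CPM per kb of merged exons. Merged exons pool every annotated exon of a gene, so their length can exceed that of the transcripts present. The order and the ratios therefore depend on this measure. Among hexokinases, *Hk3* prevailed with 149, 185 and 167 CPM per kb in control replicates 1 to 3 and 132, 169 and 109 in the NaCl replicates. In each control library this was 8.06 to 9.83 times the level of *Hk1*, and *Hk1* in turn exceeded *Hk2*. None of these ranges overlapped in control or in NaCl. Without the division by length, the control replicates 1 to 3 had 549, 681 and 613 CPM for *Hk3* and 135, 160 and 176 CPM for *Hk1*. The ratio was thus smaller by CPM, since the merged exons measured 3682 bases for *Hk3* and 8532 for *Hk1*. *Ldha* had 250.2, 463 and 401 CPM per kb in control and 253, 428 and 280.0 in NaCl, 35.2 to 57.4 times the level of *Ldhb* in the same library.

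The muscle-type *Pfkm* was the lowest phosphofructokinase, at 7.67 ± 0.456 CPM per kb in control (SD, n = 3), while *Pfkl* and *Pfkp* overlapped. *Pfkl* had 13.6, 25.1 and 20.7 CPM per kb in control and 12.1, 25.3 and 10.8 in NaCl. Without the division by length, *Pfkp* lay above *Pfkl* in every library. *Pfkp* had 178, 230 and 219 CPM in control and 166, 203 and 164 in NaCl. *Pfkl* had 91.0, 167 and 138 CPM in control and 81.0, 169 and 72.3 in NaCl. The merged exons measured 13401 bases for *Pfkp* and 6675 for *Pfkl*. Of the regulators of phosphofructokinase, *Pfkfb4* had 13.8, 10.2 and 11.9 CPM per kb in control and 12.5, 10.9 and 11.2 in NaCl. Per length it overlapped with *Pfkfb3* in control but not in NaCl. Without the division by length, the NaCl means were 56.2 CPM for *Pfkfb4* and 57.1 CPM for *Pfkfb3*. The lactate carrier *Slc16a3* had 16.3, 27.3 and 24.6 CPM per kb in control and 15.02, 20.01 and 12.3 in NaCl. It was 3.30 to 3.95 times the level of *Slc16a1* in control and 1.42 to 3.48 times in NaCl.

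Over all 42 genes, *Pkm* (586 ± 114 CPM per kb), *Aldoa* (539 ± 70.9), *Ldha* (371 ± 109) and *Taldo1* (323 ± 76.3) led in control (mean ± SD, n = 3), and *Slc16a1* came last at 6.38 ± 1.41. The ranges of neighbours among these 4 genes overlapped. In NaCl the first 7 places were held by the same genes in the same order as in control, with *Pkm* at 923 ± 364. *Idh1* moved from place 14 to place 9, and *Pgk1* from place 8 to place 12.

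**Figure D4:**
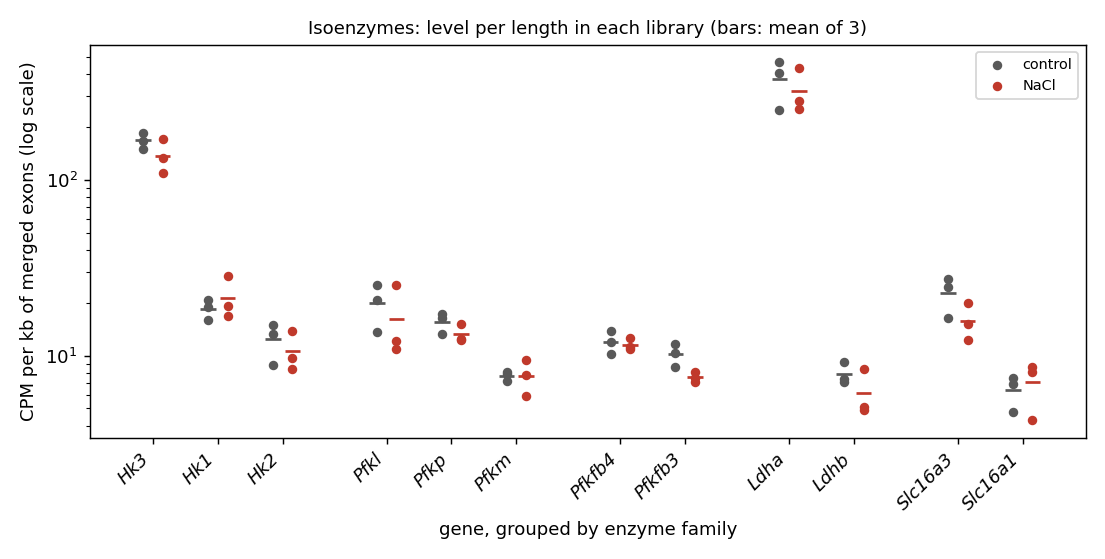
Level per length (CPM per kb of merged exons, log scale) of the isoenzymes of 5 families, with a point per library for control (grey) and NaCl (red) and a bar at the mean of 3. *Hk3* and *Ldha* lie far above their relatives in both groups, and the points of *Pfkfb3* and *Pfkfb4* separate in NaCl.

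Other genes of the same pathways were read from a further list of 71 genes, of which 55 were tested. Without the block, 1 of the 55 was higher and 0 were lower (beside 0.478 and 0.176% of all genes), and with the block 3 were higher and 2 lower. These 5 of 55 (9.09%) stand beside 8.9% of all genes called with the block, so the share lay at the background. *Slc2a6*, which encodes the hexose carrier GLUT6, had a CPM of 30.5, 24.8 and 30.7 in control replicates 1 to 3 and 63.5, 64.6 and 55.6 in NaCl replicates 1 to 3. All 3 mice moved alike and the groups did not overlap, with a log2 fold change of 1.10 (SE 0.14, edgeR adjusted p = 0.016, and 2.4e-06 with the block), whereas *Slc2a1* did not pass the test. Single libraries decided the call without the block, which was lost without control replicate 2 or 3 and without NaCl replicate 2 or 3. *Pck2*, the mitochondrial PEP carboxykinase, had 83.7, 99.0 and 94.2 CPM in control and 63.1, 47.8 and 37.1 in NaCl. Its levels did not overlap either, with a log2 fold change of -0.89 (SE 0.19, edgeR adjusted p = 0.072, and 8.9e-05 with the block).

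Pyruvate carboxylase (*Pcx*), which replenishes oxaloacetate, had a low level of 5.73 ± 0.848 CPM in control and 10.4 ± 1.14 CPM in NaCl (SD, n = 3), with a blocked log2 fold change of 0.85 (edgeR adjusted p = 0.00425). *H6pd*, the hexose 6-phosphate dehydrogenase of the endoplasmic reticulum, rose by 0.50 on the log2 scale (edgeR adjusted p = 0.0077 with the block). *Pdp1*, the phosphatase that reverses the action of pyruvate dehydrogenase kinases, fell by 0.44 on the log2 scale (edgeR adjusted p = 0.037 with the block). Both the kinase *Pdk1* and the phosphatase *Pdp1* were thus lower with the block. The remaining 50 of the 55 genes did not pass in either fit.

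Known HIF-1 targets among the 42 genes were lower, higher (*Pkm*) or did not pass the test, and 14 targets of HIF outside glycolysis were read as a list beside them. Without the block 0 of the 14 passed in edgeR (beside 0.654% of all genes), with 5 at an unadjusted p under 0.05 (beside 12.6%). DESeq2 without the block called *Bnip3* and *Vegfa*, beside 2.52% of all genes. With the block 5 of the 14 (35.7%) were lower, beside 4.3% of all genes, and 0 were higher. The 5 were *Bnip3* (a mitophagy receptor), *Vegfa* (a growth factor of blood vessels), *Ankrd37*, *P4ha1* (a collagen prolyl hydroxylase) and *Ero1a* (an oxidase of protein disulfide bonds). *Bnip3* had 15.7, 22.4 and 20.4 CPM in control and 11.8, 6.35 and 7.43 in NaCl, so that the groups did not overlap, and its blocked log2 fold change was -1.20 (edgeR adjusted p = 0.00026). Of its windows, 34.42% are shared with other gene models, and 22.25% of its exon bases overlap a gene on the opposite strand. For *Ankrd37* these shares were 13.25 and 26.38%. *Vegfa* had 121, 95.7 and 119 CPM in control and 72.4, 78.0 and 74.7 in NaCl, with -0.56 (edgeR adjusted p = 0.0033). The median log2 fold change over the 14 genes was -0.50, and 10 of the 14 were lower in 3 of 3 mice, beside 23.4% of all genes. The list was written with earlier results of these data known, and HIF protein was not measured here.

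**Figure D5:**
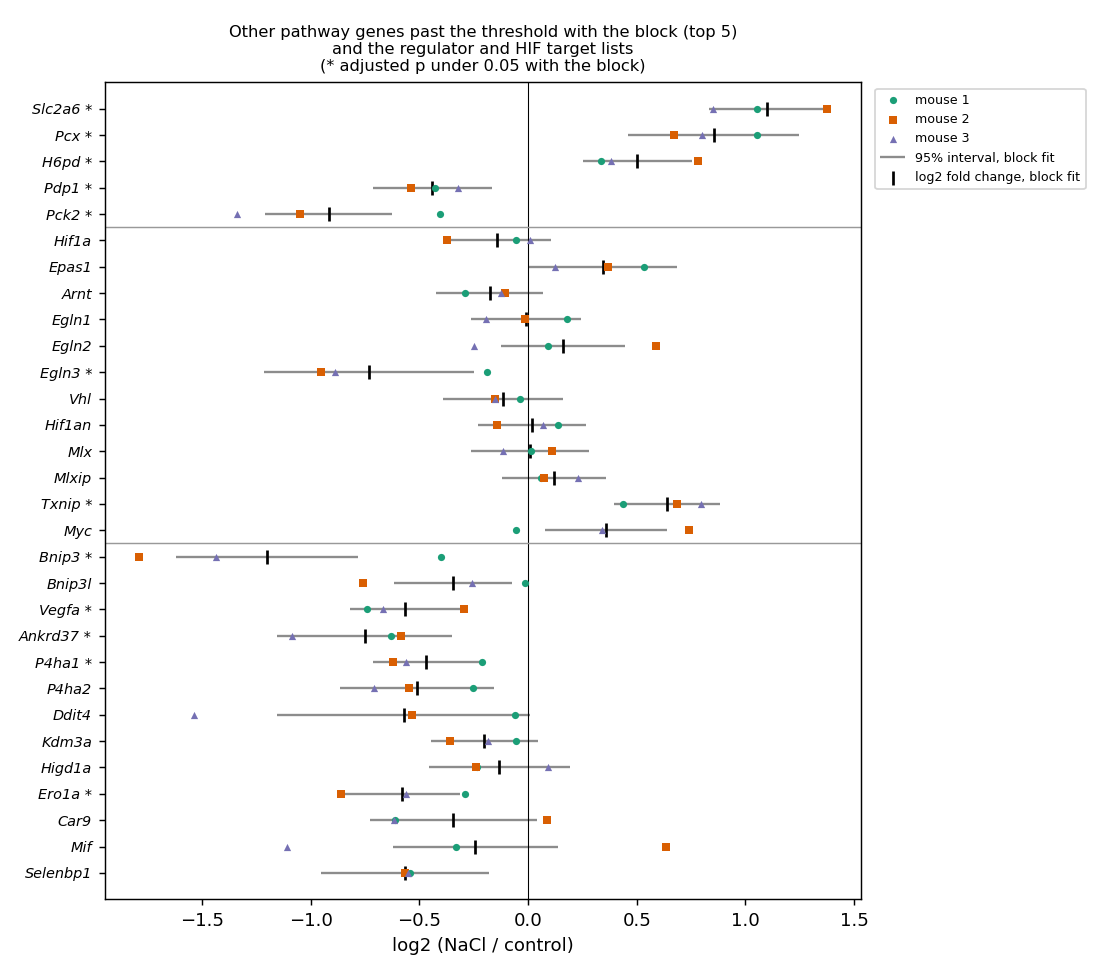
Log2 ratio of NaCl to control in each mouse (coloured points) with the blocked log2 fold change (tick) and its 95% interval (line), for the 5 other pathway genes called with the block (top), 12 regulators (middle) and 13 of the 14 HIF targets (bottom, *Adm* left out for its low level). *Slc2a6* lies near 1.10, *Bnip3* near -1.20, and the blocked values of the HIF targets shown are all below 0.

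Markers of cell types were read beside these results. All 8 macrophage markers were tested, and their summed level was 15013 to 16887 CPM in the control and 23957 to 31399 CPM in the NaCl libraries. With the block 3 markers were higher and 1 (*Mrc1*) lower, beside 4.6 and 4.3% of all genes. Most of the difference in the summed level was *Lyz2* (lysozyme), whose mean level was 9817 ± 524 CPM in the control libraries and 19148 ± 3609 in the NaCl libraries (SD, n = 3). *Adgre1* and *Cd68* did not pass the test, and the median log2 fold change over the 8 markers was 0.0077. Monocyte markers summed to 159 to 261 CPM in control and 93.6 to 313 CPM in NaCl, and neutrophil markers to 269.8 to 569 and 294 to 411 CPM. With the block 2 of 11 neutrophil markers were lower, beside 4.3% of all genes. Dendritic cell markers summed to 4.09 to 4.80 CPM in control and 2.81 to 3.69 CPM in NaCl. Of the defining markers of T cells (*Cd3e*, *Cd3d*), red cells (*Hba-a1*, *Hbb-bs*) and stromal cells (*Pdgfra*, *Dcn*), none reached a total of 10 counts. The T and NK cell list (1 of 6 tested, *Cd4*, lower with the block) summed to 5.20 to 11.5 CPM in control and 2.64 to 8.16 CPM in NaCl. Stromal markers (3 of 7 tested) summed to at most 4.34 CPM and erythroid markers (1 of 5 tested) to at most 0.240 CPM in a library. The part of these differences in the levels of the 42 genes was not tested.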

How the data were processed

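Polyadenylated RNA of 6 BMDM cultures was sequenced (TruSeq, 75 bp single-end). Per the submitters' processing notes the authors used CASAVA 1.8.2, fastp 0.20.0, STAR 2.7.10b, SAMtools 1.16.1, R 4.3.1 and DESeq2 1.40.2. The files deposited are an unnormalized raw count per gene, counted without strand, and a normalized signal in which the authors had scaled each count by a DESeq2 size factor, and the latter gave the gene symbols only. Since mm10 and GENCODE vM32 are both named and differ in build, genes are placed by chromosome only. Lengths and shared 75-base windows came from GENCODE M21, promoters from RefSeq.

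Raw counts were tested with edgeR 4.0.16 in R 4.3.3 (TMM, glmQLFit, glmQLFTest) where a gene's total count was 10 or more. The design had no term for the mouse, as none is named in the methods, and the paired alternative adds it. The labels give the same animal in both groups, and deviations from the group means correlated over genes with r = 0.43, 0.15 and 0.22 within mice 1, 2 and 3 and -0.35 to 0.12 otherwise (genes are not independent, so without p). Without the block, p-values set the change against the spread among the libraries of a group. With the block, they set it against how the change varies among these 3 mice and the noise of counting. In both fits edgeR draws the spread of each gene towards that of the other genes. The SE and p-value thus do not measure the spread of a gene among its own 3 mice alone. For *Slc16a3*, the log2 ratios were -0.12, -0.44 and -1.00 in mice 1, 2 and 3, at a blocked SE of 0.14.

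The 42 genes, the other lists and the rule for named genes were chosen with earlier results of these data known. The rule gives library values for members called with or without the block and for the leading isoenzyme per length of each family. It names genes of the other lists where called. Alternatives were DESeq2 1.42.0, other scalings, other filters on low counts, thinning of every library to 4088065 counts, and leaving out libraries or mice. The mouse term and a loess correction (span 0.5) for GC content and length were added after seeing the data. Scripts were tested on simulated data. 1 further cell type marker list is not reported here.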

Additional observations from a re-analysis of the deposited data

How the results depend on the processing

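With the replicate block the counts of higher and lower members were 3 and 4 (0 and 0 without it). With other settings beside the block they were 3 and 4 (median-ratio size factors, beside 9.0% of all genes), 2 and 4 (total count scaling, 7.43%), 2 and 3 (DESeq2, 5.07%), 3 and 3 (thinning, 6.37%) and 4 and 10 (added GC and length correction, 13.4%). Lowering the filter to a total count of 1, without the block, called 2 and 2 (2.67% of all genes), and the cause was not tested. Leaving out libraries or mice gave 0 to 3 higher and 0 to 9 lower members, above 0 only in fits with the block. For the other pathway genes (1 higher and 0 lower), the counts were 3 and 2 with the block, also with median-ratio size factors, 3 and 1 with the block in DESeq2, with total count scaling or after thinning, and 5 and 3 with the added correction. Without the block they were 2 and 1 in DESeq2 or with the lower filter and 1 and 1 after thinning, and leaving out libraries or mice gave 0 to 5 higher and 0 to 1 lower.

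The log2 fold change of 25 of the 42 members kept its sign in every setting, among them the 7 called. *Pfkm* (0.02) came to -0.00080 with the block, -0.089 and -0.086 after thinning without and with the block, and -0.053 with the added correction. *Aldoa* (-0.00086) came to 0.0098 both in DESeq2 and with median-ratio size factors, 0.00096 with total count scaling and 0.015 with filterByExpr. After thinning without and with the block, *Pdhb* came to 0.016 and 0.015 and *Dlat* to 0.047 and 0.038. *Sdhb* came to -0.0029 with the lower filter and -0.0080 with the added correction. Leaving out libraries or mice gave -0.44 to 0.063 for *Slc2a1*, -0.043 to 0.37 for *Hk1*, -0.14 to 0.17 for *Pfkm*, -0.18 to 0.11 for *Aldoa*, -0.14 to 0.062 for *Pfkfb4*, -0.37 to 0.11 for *Gapdh*, -0.038 to 0.39 for *Slc16a1*, -0.12 to 0.27 for *Pgls*, -0.11 to 0.20 for *Pgd*, -0.22 to 0.12 for *Taldo1*, -0.19 to 0.11 for *Dlat*, -0.23 to 0.11 for *Idh2*, -0.046 to 0.27 for *Idh3a*, -0.11 to 0.17 for *Suclg1*, -0.16 to 0.13 for *Sdhb* and -0.16 to 0.30 for *Mdh2*.

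The block changed the call of the 7 members named and of no other member. NaCl replicate 3, the shallowest library, had no count for 1235 of the genes tested, and the median SE over the 42 genes was 0.18 without and 0.12 with the block, so smaller changes could not be told from 0. Fits without a mouse rest on 2 pairs.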

Other observations

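The regulators of the HIF and glucose-sensing pathways were read as a list of 13 genes, of which 12 were tested. Without the block 0 of the 12 passed in edgeR or in DESeq2, with 2 at an unadjusted p under 0.05 in edgeR, beside 12.6% of all genes. With the block 1 was higher and 1 lower, beside 4.6 and 4.3% of all genes. *Txnip*, which encodes the thioredoxin-interacting protein, a known brake on glucose uptake whose gene responds to glucose 6-phosphate, had 562, 293 and 319.7 CPM in control replicates 1 to 3 and 759, 473 and 556 CPM in NaCl replicates 1 to 3. All 3 mice moved upwards, mouse 1 was highest in both groups, and the blocked log2 fold change was 0.64 (SE 0.12, edgeR adjusted p = 0.000693, against 0.37 without the block). Of the exon bases of *Txnip*, 19.4% overlap a gene on the opposite strand, and the counting used no strand. *Egln3*, the oxygen-sensing prolyl hydroxylase PHD3 and itself a known HIF target, had 3.98, 8.42 and 6.81 CPM in control and 3.46, 4.26 and 3.59 CPM in NaCl. Its level was low and its call marginal, with a blocked log2 fold change of -0.73 (SE 0.23, edgeR adjusted p = 0.0497).

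The RNA of the HIF subunits themselves did not pass the test. With the block, the log2 fold change was -0.14 for *Hif1a* (95% interval -0.39 to 0.11), 0.34 for *Epas1* (0.00 to 0.69) and -0.18 for *Arnt* (-0.42 to 0.07). The hydroxylase *Egln1* had -0.01 and *Vhl*, which marks HIF for degradation, had -0.11. HIF activity is set largely at the protein level, which these libraries do not measure.

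The second identifier of *Aldoa*, ENSMUSG00000114515.3 on chromosome 7, held 6 to 28 counts per library. Its CPM was 0.983 ± 0.344 in control and 1.86 ± 0.712 in NaCl (SD, n = 3), and it did not pass the test (log2 fold change 0.90 with the block, edgeR adjusted p = 0.17), beside 1568 CPM in NaCl for the main identifier.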
